A study of Homo sapiens with 9 samples.

Results

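The genes described here are 57 listed genes of human chromosome 10 whose RNA had been found higher in MIV, the metastatic line of a breast epithelial cell line series, than in its sister lines MII and MIII. The genes were chosen by their measured signals in MIV against MII and MIII, so the MIV differences of these genes are given below as descriptions. Limma's calls on them are counted once, also as a description, and no test is read from them. Of the 57 genes, 56 had a probe set of their own on the array and 55 of those gave signals high enough to be tested, out of 12594 tested genes among 19775 on the array. Of the 55, 41 lie on the short arm (10p) and 14 on the long arm (10q). They are a part of 502 tested genes of chromosome 10, 113 on 10p and 389 on 10q, of which 447 are not on the list. BMI1, a subunit of the Polycomb repressive complex PRC1, shares its only probe set with the read-through transcript COMMD3-BMI1 and is given no value. MAP3K8, a kinase upstream of the MAPK cascade, had signals between 3.7 and 42.9 on the 9 arrays and did not pass the filter on low signals, which asked for at least 3 of 9 arrays above 69.3, the median of all signals. None of the 55 passed that filter through the MIV arrays alone.

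The 3 lines come from the progression series built on MCF-10A, which starts from an immortalised, non-malignant human breast epithelial line and in which the more aggressive members derive from cells carrying an activated HRAS gene. MII is the line MCF-10AT1Kcl2, labelled carcinoma in situ, MIII is MCF-10A1h, labelled carcinoma, and MIV is MCF-10A1a, labelled metastatic carcinoma. All 3 were grown in the same medium with horse serum, insulin, cholera toxin, epidermal growth factor and hydroxycortisone, and total RNA of each was measured on 3 arrays labelled as biological replicates. Each stage is represented by 1 cell line, and the labels do not say that the replicates came from separate cultures, so the p-values below measure the spread between arrays, which may be technical, and a difference between lines cannot be told apart from a difference between stages.

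The values are MAS5 signals, array intensities on a linear scale, and differences are given as log2(signal + 18.3), which understates the change of dim genes. Array medians lay between 69.0 and 71.7 in MII, 72.1 and 74.9 in MIII and 64.7 and 65.2 in MIV, and arrays of 1 line correlated at r = 0.974 to 0.977 over 54675 probe sets. The median standard error of a log2 difference was 0.084 for the listed genes and 0.11 for all genes tested. The 8 epithelial markers on the array (of 10 listed) were above the median of all signals on every array of every line, with a summed signal of 126180 to 132780 in MII, 80532 to 82313 in MIII and 129350 to 140020 in MIV. The leukocyte marker PTPRC and the endothelial markers CDH5, VWF and KDR were not above it on all arrays of any line. Of the 3 leukocyte markers on the array (of 5 listed), 2 were above it on all MII arrays and 1 on all arrays of MIII and of MIV, with a summed signal of 1541 to 1686, 639 to 749 and 392 to 454. Of 4 endothelial markers, 1 was above it in every line, with sums of 149 to 302, 251 to 344 and 259 to 369. The summed signal of 8 fibroblast markers was 447 to 499 in MII, 4525 to 4809 in MIII and 433 to 442 in MIV. The fibroblast sum was thus high in MIII and the leukocyte sum lowest in MIV, and their part in the differences between the lines was not tested. In bulk RNA, fewer cells expressing a gene and less RNA per cell cannot be told apart.

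Cancer cell lines often carry extra or missing copies of whole chromosomes or arms, and the RNA of many genes in such a region then shifts with the number of copies, each gene by a modest amount. If signal followed copy number, 1 copy added to 2 would raise it 1.5-fold. DNA was not measured in these samples. The listed genes share a chromosome rather than a pathway, and they lie scattered over both of its arms. They include regulators of chromatin, ribosome and mitosis, membrane traffic proteins, mitochondrial enzymes and signalling proteins, most of them used by nearly every cell.

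The promoters of the listed genes are of the type common to widely used genes. RefSeq promoter windows of the assembly GRCh38.p14, running from 250 bases before to 50 bases after a start site, were found for 53 of the 57 genes, with the first window taken for the 20 genes that have several. Their median GC content was 65.3% with 25 CG dinucleotides, next to 65.0% and 26 in the 10232 windows of the genes tested and 58.3% and 14 in all 27305 windows. The GC box GGGCGG, searched on both strands, stood in 32 of the 53 windows (60.4%), against 68.7% of the genes tested and 44.6% of all windows. The letters CCAAT, on either strand, stood in 22 (41.5%), against 36.8% and 35.7%, and TATAAA, on either strand, in 2 (3.77%), against 6.07% and 12%. Matches to the GC box and to CCAAT can share letters, and a match is a description of the sequence only.

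The windows of 5 genes that the results below return to are printed from 5′ to 3′ in the direction of the gene. Among the listed genes, MASTL and NPM3 had the largest MIV differences from MIII on 10p and 10q, and NMT2 and FRMD4A the largest fall and rise in MIII against MII. CDC123 starts 297 bases from NUDT5 in the opposite direction, the only such head-to-head pair on the list within 1000 bases. Capitals mark the GC box or its complement CCGCCC in MASTL (chr10:27155102-27155401, plus strand), NPM3 (chr10:101783397-101783696, minus strand) and NMT2 (chr10:15168644-15168943, minus strand), which hold 3, 2 and 12 of them, with some of those in NMT2 overlapping each other. In FRMD4A (chr10:14008501-14008800, minus strand) they mark TTTATA, the complement of TATAAA. In CDC123 (chr10:12195938-12196237, plus strand) they mark the 204 bases that its window shares with that of NUDT5.
MASTL: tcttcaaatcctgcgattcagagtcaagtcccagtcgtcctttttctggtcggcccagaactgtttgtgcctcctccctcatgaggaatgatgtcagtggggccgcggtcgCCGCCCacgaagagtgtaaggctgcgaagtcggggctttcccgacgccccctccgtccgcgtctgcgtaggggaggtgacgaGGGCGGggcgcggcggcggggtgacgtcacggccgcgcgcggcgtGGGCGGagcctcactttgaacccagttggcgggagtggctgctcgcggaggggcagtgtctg
NPM3: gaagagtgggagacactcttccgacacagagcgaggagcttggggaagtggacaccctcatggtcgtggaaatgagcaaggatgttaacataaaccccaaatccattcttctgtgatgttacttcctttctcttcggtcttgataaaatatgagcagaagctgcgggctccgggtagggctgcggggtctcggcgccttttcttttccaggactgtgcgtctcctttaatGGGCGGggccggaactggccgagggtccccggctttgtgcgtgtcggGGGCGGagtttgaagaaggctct
NMT2: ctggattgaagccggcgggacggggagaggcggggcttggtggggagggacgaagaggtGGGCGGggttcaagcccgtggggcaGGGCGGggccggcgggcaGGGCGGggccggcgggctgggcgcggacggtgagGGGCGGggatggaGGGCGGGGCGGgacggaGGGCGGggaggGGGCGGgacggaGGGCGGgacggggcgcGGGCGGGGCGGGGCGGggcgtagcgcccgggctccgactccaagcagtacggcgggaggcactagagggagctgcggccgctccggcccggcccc
FRMD4A: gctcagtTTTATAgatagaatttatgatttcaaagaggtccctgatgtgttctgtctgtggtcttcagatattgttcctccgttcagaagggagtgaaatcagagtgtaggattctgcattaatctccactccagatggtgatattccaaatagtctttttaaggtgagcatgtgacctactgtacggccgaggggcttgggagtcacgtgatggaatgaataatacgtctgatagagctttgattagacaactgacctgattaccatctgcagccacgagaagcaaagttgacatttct
CDC123: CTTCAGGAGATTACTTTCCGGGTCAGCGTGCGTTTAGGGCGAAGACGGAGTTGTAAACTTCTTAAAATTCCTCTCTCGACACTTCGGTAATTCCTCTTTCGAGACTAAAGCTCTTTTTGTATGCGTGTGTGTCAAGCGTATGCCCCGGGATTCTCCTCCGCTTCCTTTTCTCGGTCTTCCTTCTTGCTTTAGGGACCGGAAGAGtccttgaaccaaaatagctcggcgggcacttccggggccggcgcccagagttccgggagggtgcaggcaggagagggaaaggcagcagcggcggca

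The median of the listed genes was higher in MIV and close to the same on its 3 arrays, while single genes differed widely. Relative to the MII mean of each gene, the median of the 55 genes was 0.40, 0.38 and 0.42 on the 3 MIV arrays. The same median was 0.01, -0.02 and 0.02 on the MII arrays and 0.00, 0.02 and 0.01 on the MIII arrays. The MIV arrays thus stood apart from the other 6, which lay together. Per gene, the median log2 difference was 0.39 between MIV and MII, with a middle 50% of 0.25 to 0.64, and 0.44 between MIV and MIII, with a middle 50% of 0.19 to 0.62, where all 12594 genes had medians of -0.03 and -0.01. Single genes ran from -0.08 to 1.11 against MII and from -0.70 to 1.10 against MIII.

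The label of the list held for most of its genes but not for all. The difference from MII was above 0 for 53 of the 55 genes and that from MIII for 45, next to 46.8% and 49% of all genes tested. Both were above 0 for 45 of the 55 genes, where this was so for 31.2% of all genes tested, a single difference was above 0 for 8, and neither was for CAMK1D and EPC1. Limma's calls at adjusted p under 0.05 are counted here as a description only. Against MII, 40 were higher in MIV, where 20% of all genes tested were, and 0 were lower, where 22.2% were. Against MIII, 38 were higher and 4 lower, where 25.3% and 26.6% of all genes were. All 3 MIV arrays lay above all 6 other arrays for 36 of the 55, beside 14.2% of all genes tested. The rule chose on these values, so nothing is read from the counts. The smaller of both folds was under 1 for 10 genes and 1 to 1.2 for 14. It was 1.2 to 1.6 for 27 and at least 1.6 for 4. Thus 49.1% fell into the band from 1.2 to 1.6, next to 34.5% of 10p genes, 27.5% of 10q genes and 9.19% of all genes. The list was drawn from these same differences and its genes are counted in both arms, so nothing is read from the bands.

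**Figure D1:**
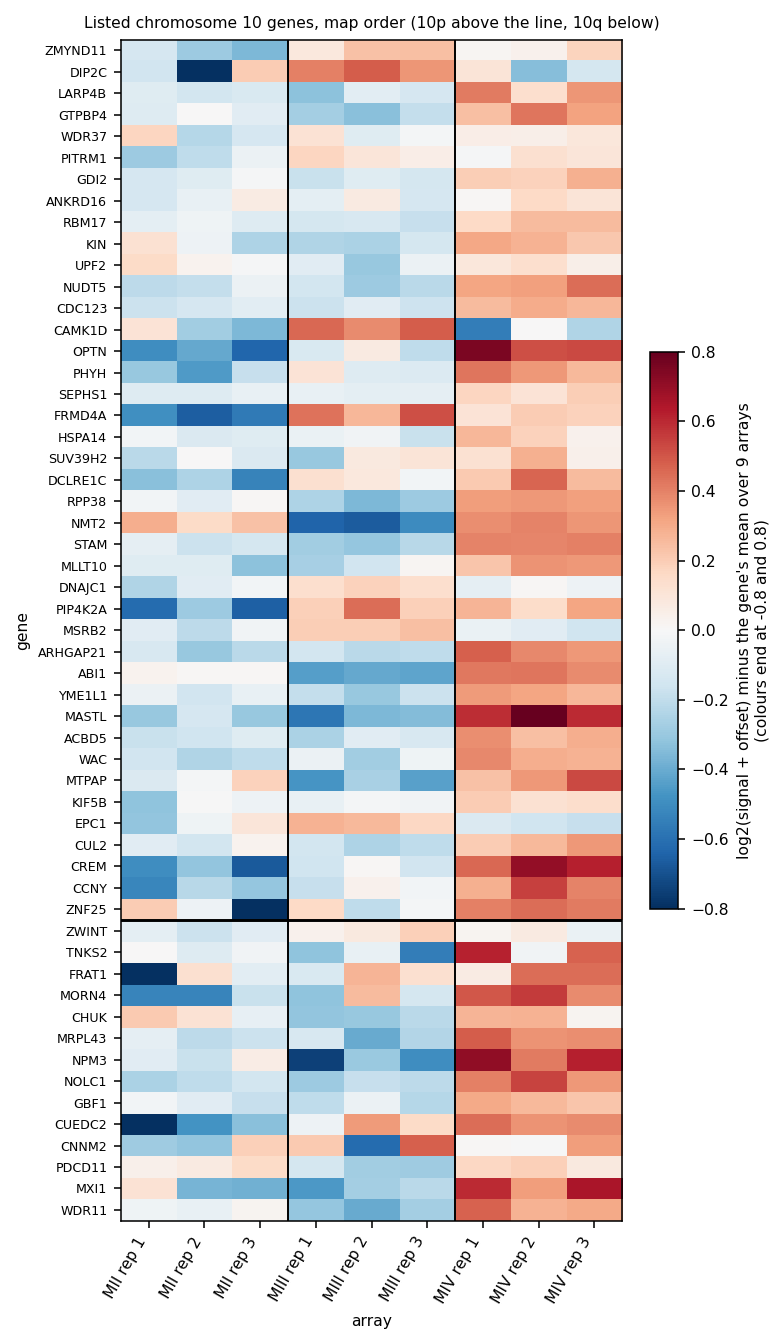
Colour map of the tested listed genes (rows, in map order, 10p above the line) on the 9 arrays (columns), as log2(signal + 18.3) minus each gene's mean over the arrays. Red is above and blue below that mean. The 3 MIV columns are mostly red and the MII and MIII columns mostly blue or pale, and rows such as NMT2 and ABI1 are bluest in MIII.

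Among the 9 tested regulators of chromatin and transcription, the medians were 0.48 against MII and 0.44 against MIII, and 5 had all MIV arrays above all others. Of all genes tested, 14.2% had all MIV arrays above all others. The rule chose on these values, so nothing is read from such counts here or in the groups below. MXI1, a MAX partner that opposes MYC, had signals of 2303, 1639 and 1627 in MII, 1545, 1764 and 1833 in MIII and 3223, 2692 and 3361 in MIV. Its lowest MIV array lay above its highest array in either other line, and the log2 differences were 0.74 ± 0.12 (standard error, as for all log2 differences) and 0.84 ± 0.12. CREM, a transcription factor of the cAMP response, had signals of 458, 522 and 403 in MII, 583, 659 and 586 in MIII and 906, 1076 and 1014 in MIV. The 3 lines did not overlap and stood in the order MII, MIII, MIV, with differences of 1.09 ± 0.11 and 0.69 ± 0.11. WAC, an adaptor for histone H2B ubiquitination, was the brightest of the group, with 5649, 5310.2 and 5456 in MII, 6073, 5159 and 6116 in MIII and 8200.3, 7661 and 7606 in MIV. MII and MIII overlapped and MIV lay above both, by 0.51 ± 0.07 and 0.44 ± 0.07. MLLT10, a partner of the histone methyltransferase DOT1L, was higher in MIV by 0.48 and 0.44.

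The remaining chromatin genes varied more. ZMYND11, a reader of methylated histone H3.3, had 2492, 2239 and 2136 in MII, 2905, 3232 and 3237 in MIII and 2767, 2809 and 3106 in MIV. It was highest in MIII, whose arrays overlapped those of MIV. EPC1, a scaffold of the NuA4 histone acetyltransferase, had 1122, 1365 and 1497 in MII, 1703, 1681 and 1573 in MIII and 1290.0, 1249 and 1229.6 in MIV. Its MIV arrays lay within the range of MII and below those of MIII, by 0.39 ± 0.09. DIP2C, whose role is little known, was dim, with 75, 37.1 and 101 in MII, 119, 127 and 114 in MIII and 93.5, 63.7 and 75.9 in MIV, where MII and MIV overlapped. SUV39H2, a histone H3 lysine methyltransferase, differed by 0.26 ± 0.10 and 0.19 ± 0.10, and the zinc finger gene ZNF25 by 0.83 ± 0.31 and 0.44 ± 0.31, with MII arrays of 208, 173 and 57.6 and MIV arrays close together at 242, 250.5 and 244.

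The 12 genes of RNA processing, ribosome assembly and translation had medians of 0.38 against MII and 0.54 against MIII, and 9 had all MIV arrays above the rest. NOLC1, a nucleolar chaperone of small nucleolar RNPs, had 6829, 7049 and 7328 in MII, 6634, 7154 and 7025 in MIII and 10762, 11846 and 10349 in MIV. MII and MIII overlapped and all MIV arrays were higher, by 0.63 ± 0.06 and 0.66 ± 0.06. NPM3, a histone chaperone of the nucleolus, had 1541, 1444 and 1711 in MII, 971, 1329.7 and 1156 in MIII and 2688, 2194 and 2531 in MIV. Its 3 lines did not overlap, MIII being lowest, and the differences were 0.65 ± 0.11 and 1.09 ± 0.11. GTPBP4, a GTPase of 60S subunit assembly, had 5244, 5640.3 and 5285 in MII, 4654, 4452 and 4937 in MIII and 6650.0, 7572 and 7042 in MIV, again in the order MIII, MII, MIV without overlap. MRPL43, a protein of the mitochondrial ribosome, had 2654, 2408 and 2477 in MII, 2550.4, 2109.9 and 2371 in MIII and 3905, 3593 and 3621 in MIV. MIV stood apart from the overlapping MII and MIII by 0.56 ± 0.07 and 0.66 ± 0.07.

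CDC123, an assembly factor of the translation initiation factor eIF2, had 6022, 6173 and 6387 in MII, 6025, 6370.1 and 6044 in MIII and 8106, 8352 and 8164 in MIV. Its head-to-head neighbour NUDT5, a hydrolase of ADP-ribose, had 5258, 5323 and 5885 in MII, 5483, 4973 and 5239.8 in MIII and 7577, 7641 and 8281 in MIV. Both genes of the pair had overlapping MII and MIII arrays and higher MIV arrays, CDC123 by 0.41 ± 0.05 and 0.42 ± 0.05 and NUDT5 by 0.51 ± 0.06 and 0.58 ± 0.06. Among the remaining genes of the group, RPP38, a protein of RNase P, differed by 0.37 and 0.63, MTPAP, the mitochondrial poly(A) polymerase, by 0.35 and 0.76, and LARP4B, an mRNA-binding protein, by 0.42 and 0.48. RBM17, a splicing factor, differed by 0.30 and 0.37. UPF2, of nonsense-mediated decay, and PDCD11, of small-subunit rRNA processing, differed by 0.03 and 0.06 from MII but by 0.24 and 0.38 from MIII, and ANKRD16, a cofactor of alanyl-tRNA synthetase, by 0.13 and 0.14.

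Of the 5 genes of cell cycle and genome maintenance, 4 had all MIV arrays above the rest, and the medians were 0.68 and 0.47. MASTL, the Greatwall kinase that keeps the phosphatase PP2A-B55 inhibited in mitosis, had 459.8, 520.4 and 461 in MII, 378, 442 and 445 in MIII and 869.6, 1035 and 874 in MIV. The lowest MIV array lay far above the highest of the others, 520.4. This was the largest smaller-of-both difference on the list, 0.92 ± 0.11 against MII and 1.10 ± 0.11 against MIII. CCNY, a membrane-bound cyclin, had 1099.6, 1359 and 1281 in MII, 1398, 1626 and 1568 in MIII and 1940.4, 2333 and 2100.4 in MIV. DCLRE1C, the Artemis nuclease of DNA end joining, had 714, 758 and 618 in MII, 990, 959.6 and 892 in MIII and 1049.6, 1259 and 1082 in MIV. On these probe sets, the 3 lines followed the order MII, MIII, MIV with no overlap in both genes. The step of DCLRE1C over MIII depends on the probe set. Its others above the median of all signals had 0.48 and 0.37, 0.13 and 0.05, and 0.26 and -0.26. Over the mean of its probe sets it differed by 0.23 from MII and 0.03 from MIII. ZWINT, a kinetochore protein, had 6920.4, 6472 and 6842 in MII, 7466, 7696 and 8332 in MIII and 7416, 7656 and 7021 in MIV, so that MIV lay above MII but overlapped MIII. KIN, a DNA- and RNA-binding protein, differed by 0.32 and 0.48.

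The 11 genes of membrane traffic and cytoskeleton had medians above 0 as well: 10 had all MIV arrays above all others, and the medians were 0.44 and 0.55. GDI2, which recycles Rab GTPases, was the brightest gene of the list, with 14633, 14998 and 15927 in MII, 14200.0, 15003 and 14579 in MIII and 18425, 18218 and 19525 in MIV. MIV was higher by 0.30 ± 0.05 and 0.36 ± 0.05, with MII and MIII overlapping. OPTN, an autophagy receptor, had 1089.7, 1161 and 988 in MII, 1419.7, 1625 and 1339.6 in MIII and 2615, 2218 and 2242 in MIV. The lines stood in the order MII, MIII, MIV with no overlap, and the difference of 1.11 ± 0.09 from MII was the largest on the list. STAM, an ESCRT-0 protein that sorts ubiquitinated receptors, had 1900.5, 1776 and 1814 in MII, 1648, 1609.8 and 1713 in MIII and 2634, 2631 and 2656 in MIV. ARHGAP21, a protein of the Golgi, had 2258, 1997 and 2122 in MII, 2232, 2126 and 2139 in MIII and 3452, 3234 and 3149.9 in MIV. Both had MIV arrays well clear of the others, at 0.53 ± 0.06 and 0.67 ± 0.06 for STAM and 0.62 ± 0.06 and 0.59 ± 0.06 for ARHGAP21.

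KIF5B, a kinesin-1 motor, had 8580.5, 10709 and 10414 in MII, 10287, 10615 and 10532 in MIII and 12326, 11670.0 and 11812 in MIV, a smaller step of 0.28 ± 0.07 and 0.19 ± 0.07. MORN4, a myosin-binding protein, was dimmer, with 194, 194 and 252 in MII, 227, 347 and 260 in MIII and 415, 433 and 381 in MIV. Its MIV arrays lay above the overlapping MII and MIII arrays by 0.89 ± 0.16 and 0.55 ± 0.16. ABI1, a subunit of the actin-regulating WAVE complex, had 2167, 2145 and 2139 in MII, 1559.6, 1595 and 1582 in MIII and 2851, 2870.0 and 2767 in MIV, 3 tight and separate levels with MIII lowest. WDR11, of the trans-Golgi network, differed by 0.38 and 0.68, ACBD5, which tethers peroxisomes to the endoplasmic reticulum, by 0.44 and 0.46, and GBF1, an exchange factor for Arf GTPases, by 0.36 and 0.42. FRMD4A, a regulator of epithelial polarity, was the exception in the group, with 226, 199.8 and 214 in MII, 446, 396 and 475 in MIII and 353, 379 and 373 in MIV. MIV lay between the others.

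**Figure D2:**
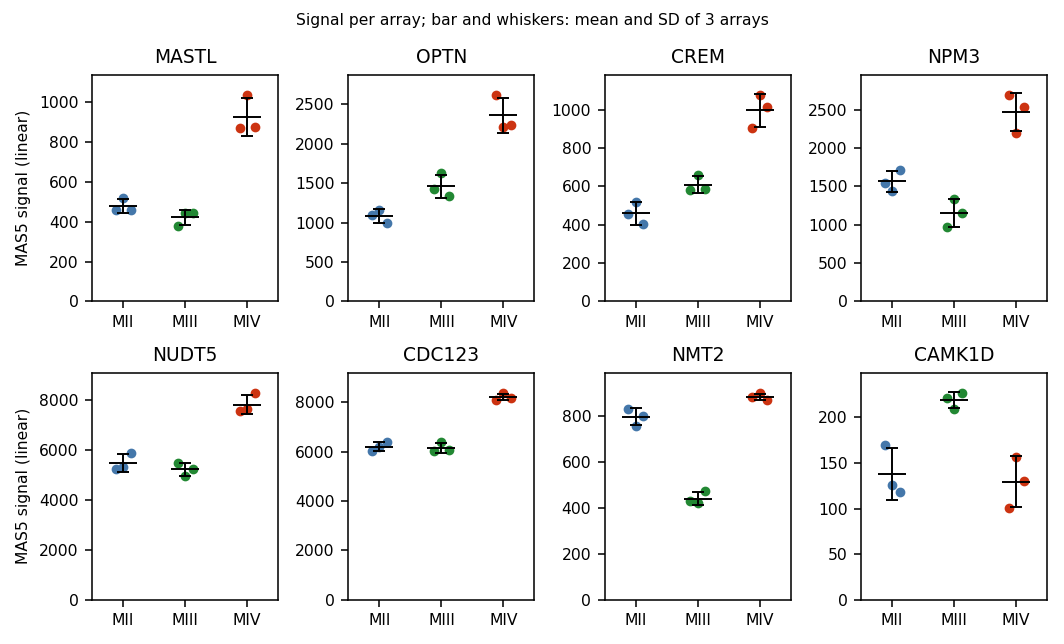
MAS5 signal (linear axes from 0, a scale per panel) of 8 listed genes on each array, with points for arrays and bars and whiskers for the mean and SD of 3 arrays per line. MASTL, NUDT5 and CDC123 show a single step up in MIV, OPTN and CREM rise line by line, NPM3 and NMT2 are lowest in MIII and CAMK1D is highest there.

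Metabolic, mitochondrial and protein folding genes had medians of 0.25 and 0.24 over 10 genes, of which 6 had all MIV arrays above the rest. YME1L1, a protease of the inner mitochondrial membrane, had 7539, 7008 and 7483 in MII, 6817, 6307 and 6908 in MIII and 9877, 9693 and 9376 in MIV. PITRM1, which degrades mitochondrial targeting peptides, had 4119, 4370.1 and 4865 in MII, 5668, 5376 and 5235 in MIII and 5013, 5514 and 5398 in MIV. YME1L1 was thus higher in MIV than in both lines, by 0.39 ± 0.05 and 0.53 ± 0.05, whereas PITRM1 overlapped between MIII and MIV. MSRB2, a mitochondrial methionine sulfoxide reductase, had 2142, 1968 and 2240.4 in MII, 2614, 2611 and 2695 in MIII and 2201, 2137 and 2041 in MIV, within the range of MII and below MIII. NMT2, an N-myristoyltransferase, had 834, 758 and 803 in MII, 428, 421 and 474 in MIII and 885, 899.5 and 872 in MIV. Its difference of 0.98 ± 0.08 from MIII came with 0.15 ± 0.08 from MII, so that MIII was the line that stood apart. PHYH, the peroxisomal phytanoyl-CoA hydroxylase, differed by 0.66 and 0.38, and HSPA14, a ribosome-associated HSP70, by 0.24 and 0.25. SEPHS1, a selenophosphate synthetase paralogue, differed by 0.25 and 0.23 on its brightest probe set, by -0.22 and -0.64 and by -0.46 and -0.77 on its other probe sets and by -0.14 and -0.39 over their mean, so no direction is given for it. DNAJC1, a co-chaperone of the endoplasmic reticulum, differed by 0.08 and -0.19, and CNNM2, a magnesium transport protein, by 0.25 ± 0.27 and 0.09 ± 0.27.

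Of the 8 tested genes of signalling and ubiquitin, 2 had all MIV arrays above the rest, with medians of 0.37 and 0.24. CUL2, the scaffold of the VHL ubiquitin ligase, had 1468, 1414 and 1595 in MII, 1410.2, 1314 and 1356 in MIII and 1802, 1877 and 1995 in MIV. CUEDC2, a ubiquitin-binding protein, had 1918, 2434 and 2691 in MII, 3302, 4305 and 3791 in MIII and 4643, 4358 and 4425 in MIV. On these probe sets both had MIV as the highest line without overlap, CUL2 by 0.34 ± 0.07 and 0.47 ± 0.07 and CUEDC2 by 0.94 ± 0.11 and 0.24 ± 0.11. For CUL2 no direction is given, since its other probe set had differences of -0.29 and -0.41 and the mean of its probe sets 0.02 and 0.03. TNKS2, a tankyrase that marks proteins with poly(ADP-ribose), had 1333, 1239.5 and 1308 in MII, 1060.0, 1276 and 903 in MIII and 2047, 1306 and 1854 in MIV. 1 of its MIV arrays thus lay within the MII range. PIP4K2A, a phosphoinositide kinase, had 621, 784 and 605 in MII, 1101, 1317 and 1101 in MIII and 1168, 1068 and 1201 in MIV, with MIII and MIV overlapping. CAMK1D, a calcium-dependent kinase, had 170, 126 and 118 in MII, 222, 209 and 226 in MIII and 101, 157 and 130 in MIV. It went against the list, with differences of -0.08 ± 0.20 and -0.70 ± 0.20. CHUK, the kinase IKK alpha, differed by 0.11 and 0.47, FRAT1, a GSK3-binding protein, by 0.73 ± 0.33 and 0.23 ± 0.33, and WDR37 by 0.12 and 0.06.

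The comparison of MIII with MII was tested, but it is the difference of both MIV comparisons from which the list was drawn. Choosing genes higher in MIV than in both lines thus also bears on it. Its median and counts over the listed genes are descriptions, and nothing is read from them. The median log2 difference of the listed genes was -0.002, with 27 of 55 above 0, next to 48.3% of all genes. In limma, with p-values adjusted over all 12594 genes, 15 were higher in MIII, where 22.9% of all genes were, 10 were lower, where 24.3% were, and 30 were not called. With a change of at least 1.5-fold asked for as well, 4 were higher and 1 lower, where 11.6% and 11% of all genes were, and at 2-fold 0 were higher and 0 lower, where 6.17% and 5.55% were. FRMD4A rose by 0.98 ± 0.12 (limma adjusted p = 9.87e-06), PIP4K2A by 0.80 ± 0.11 (limma adjusted p = 2.82e-05) and CUEDC2 by 0.70 ± 0.11 (limma adjusted p = 0.000136). ZMYND11 rose by 0.45 ± 0.07 (limma adjusted p = 0.000159). NMT2 fell by 0.83 ± 0.08 on the log2 scale (limma adjusted p = 1.82e-06) and ABI1 by 0.44 ± 0.05 (limma adjusted p = 9.22e-06). Over the mean of all their probe sets, ZMYND11 (0.10) and ABI1 (-0.20) were not called, nor was NMT2 on a probe set without a suffix for shared sequence (-0.32). On the brightest probe sets, none of the 12 RNA and ribosome genes had a difference above 0, and 5 of them fell, among them NPM3 by 0.44 and MTPAP by 0.41. This depends on the probe set: MRPL43 had 0.45 and ANKRD16 0.97 on another, and over the mean of probe sets GTPBP4 (-0.15) and PDCD11 (-0.20), which are among the 5, were not called. Of the 9 chromatin genes, 3 rose and 0 fell, of the 5 cell cycle genes 3 rose and 0 fell, of the 11 traffic genes 2 rose and 2 fell, of the 10 metabolic genes 4 rose and 2 fell, and of the 8 signalling genes 3 rose and 1 fell. Differences between these groups were not tested. Single calls among them were lost under other settings, such as those of CCNY (0.11) and DCLRE1C (0.20) over the mean of probe sets and of CCNY (0.21) without MII replicate 1, while the fall of YME1L1 by 0.14 turned to a value of 0.07 over the mean of probe sets and 0.06 on a suffix-free one.

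Most tested genes on both arms of chromosome 10 were higher in MIV, by amounts that varied along the map. Taking all 113 tested 10p genes, listed or not, the median log2 difference was 0.34 from MII and 0.35 from MIII, with 80.5% and 67.3% of the genes above 0. The 389 genes of 10q had medians of 0.24 and 0.34, with 73.8% and 73.3% above 0. The arrays of MIV were close together, at 0.32, 0.33 and 0.33 over 10p and 0.25, 0.26 and 0.23 over 10q relative to MII, while the MIII arrays lay between 0.01 and 0.05 over 10p and between -0.09 and -0.07 over 10q. In map order, the 21 blocks of about 25 genes along the chromosome, 5 on 10p and 16 on 10q, all had medians above 0, from 0.08 to 0.40 against MII and from 0.09 to 0.56 against MIII. Against MII the smallest was that of the first block of 10q, 0.084. Against MIII the smallest were those of the first block of 10p (0.086) and the last of 10q (0.093). The 10q block from GRID1 to HTR7 (0.106) and the first of 10q (0.109) came next. Between MIII and MII, 5 of the 21 blocks were above 0, with medians from -0.24 to 0.14. The block medians were above 0 in MIV also in the 8 blocks of 10q that hold no listed gene.

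**Figure D3:**
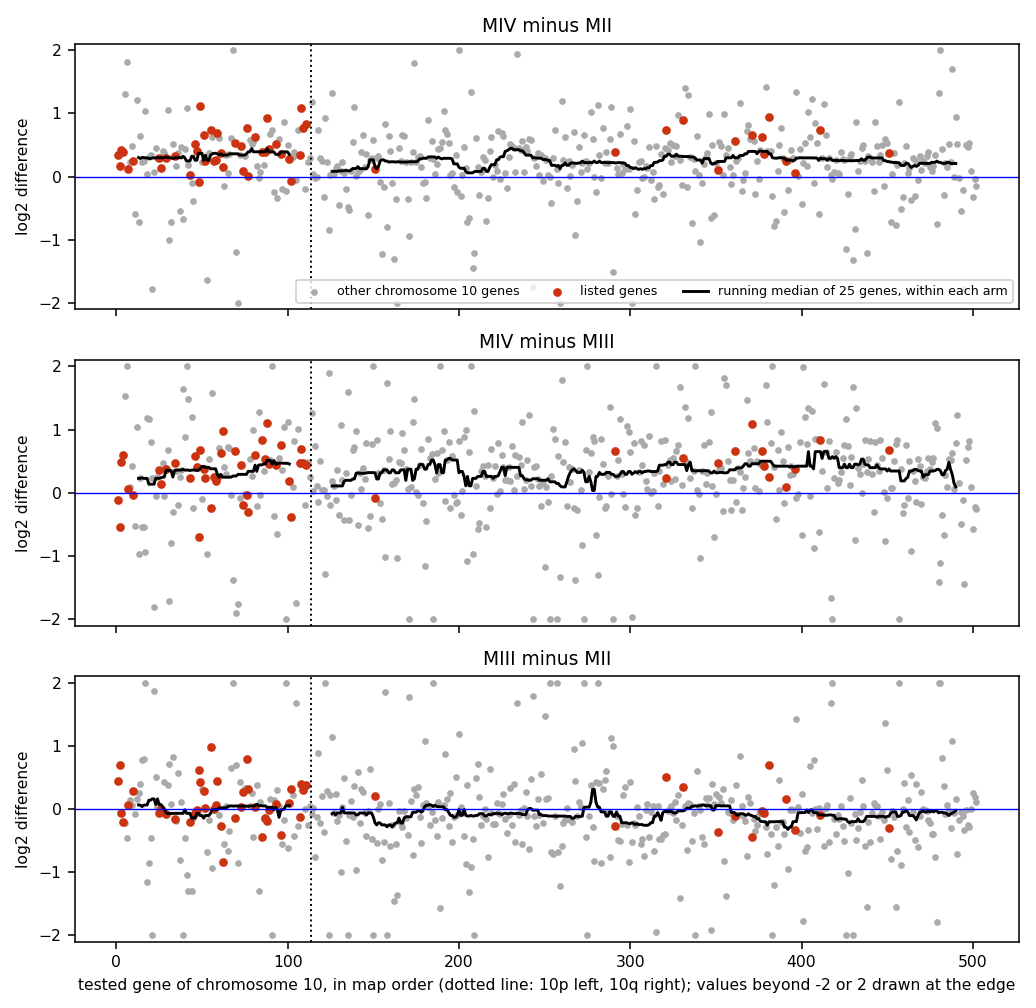
Log2 difference of each of the 502 tested chromosome 10 genes in map order (dotted line: 10p to the left, 10q to the right), for MIV minus MII, MIV minus MIII and MIII minus MII, with values beyond -2 or 2 drawn at the edge. Listed genes are red, other genes grey, and the black line is the running median of 25 genes within an arm. The line runs above 0 over nearly the whole chromosome in both MIV panels and mostly near or below 0 in the panel of MIII minus MII.

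Among genes with a mean signal above 435.7, the upper quartile of all signals, 89.6% of 77 genes on 10p were above 0 against MII and 75.3% against MIII, and 83.8% and 82.9% of 240 genes on 10q were, next to 49.5% and 52.7% of 7847 bright genes overall. Across genes, which are not independent, the Spearman correlation of the difference with the mean signal was -0.06 and 0.08 for the 55 listed genes, 0.20 and 0.07 for 10p and 0.23 and 0.25 for 10q, against MII and MIII. Of 41 chromosome arms, 10p and 10q ranked first and second by the smaller of both MIV medians. The list was drawn from these same differences and its genes are counted in both arms, so nothing is read from the ranks. Without the listed genes, the medians against MII and MIII were 0.31 and 0.28 on 10p and 0.23 and 0.32 on 10q. Another arm, 3q, with 370 genes, had a larger median against MII, 0.41, but 0.07 against MIII, since it was also higher in MIII than in MII, by 0.33. The 164 genes of 12p were higher in MIII than in both other lines, with medians of 0.43 for MIII minus MII and -0.46 for MIV minus MIII. The 523 genes of 12q had similar medians, 0.405 and -0.399.

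**Figure D4:**
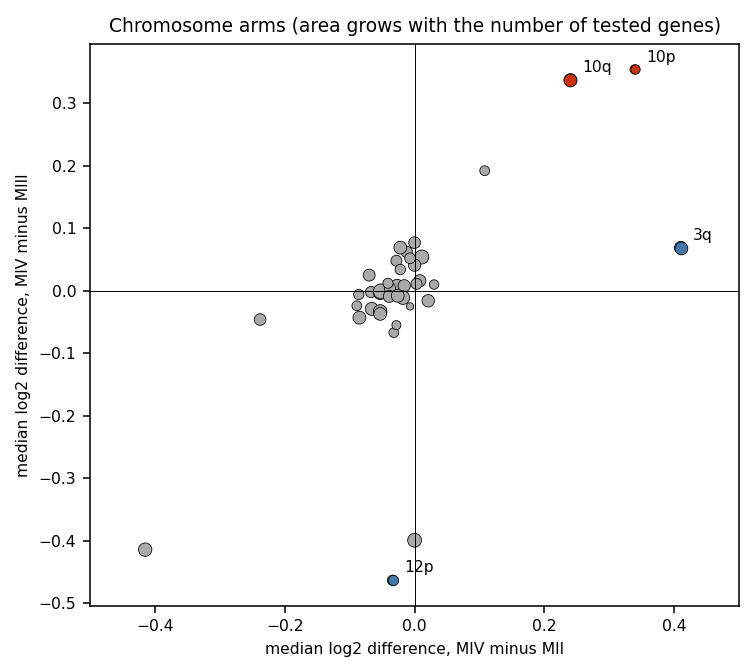
Median log2 difference of the tested genes of each of 41 chromosome arms, MIV minus MII on the horizontal and MIV minus MIII on the vertical axis, with larger points for arms with more genes. The arms 10p (0.34, 0.35) and 10q (0.24, 0.34) lie in the upper right, 3q (0.41, 0.07) to the right and 12p (-0.03, -0.46) at the bottom. The unlabelled arms 12q and 19q also lie low, at -0.40 and -0.41 on the vertical axis.

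Of the 447 tested chromosome 10 genes outside the list, 201 were higher and 43 lower in MIV than in MII, and 229 were higher and 57 lower than in MIII, by limma's adjusted p under 0.05. These are 45% and 9.62%, and 51.2% and 12.8%, next to 20% and 22.2%, and 25.3% and 26.6%, of all genes tested. The list was drawn from the same comparisons, so the counts only describe what it leaves out. The genes named below were picked as the largest changes in these comparisons. Both comparisons share the MIV arrays, and 155 genes were higher in both while 22 were lower in both, where 11.7% and 12.5% of all genes tested were. Of the 447, 24 had passed the filter on low signals through the MIV arrays alone. Without these 24, left out after seeing the data, 194 were higher than in MII, 219 than in MIII and 149 than in both, and the counts of lower genes were the same. IDI1, the isopentenyl diphosphate isomerase of cholesterol synthesis on 10p, had 5913, 5305 and 6513 in MII, 4298, 4147 and 4349 in MIII and 21660.0, 18972 and 21747 in MIV. It rose by 1.81 ± 0.07 against MII (limma adjusted p = 1.98e-10) and 2.28 ± 0.07 against MIII (limma adjusted p = 1.04e-11), beyond any listed gene. That probe set shares sequence with other transcripts by its suffix, and on the brightest probe set of IDI1 without such a suffix the differences were 0.38 and 0.18 and not called. NFKB2, the p100 precursor of NF-kB, had 364, 385 and 314 in MII, 339, 282 and 246 in MIII and 943, 916 and 1079 in MIV, rising by 1.42 ± 0.13 and 1.71 ± 0.13 (limma adjusted p = 9.39e-07 and 8.28e-08). PI4K2A, a phosphatidylinositol kinase of endosomes, rose by 1.40 ± 0.07 and 1.36 ± 0.07 (limma adjusted p = 3.18e-09 and 2.36e-09). MYPN, a sarcomere protein, and the antisense transcript UNC5B-AS1 were called higher from dim signals, and both had passed the filter through the 3 MIV arrays alone, so they could be tested only because they were high there. They had means of 24.9, 37.6 and 134 and of 44.1, 14.7 and 134 in MII, MIII and MIV. The call of MYPN against MIII was lost without MIII replicate 2 (1.02) or without MIV replicate 1 (1.14), and that of UNC5B-AS1 against MII with an offset of 1 (1.70).

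Some chromosome 10 genes went far in the other direction. NEBL, an actin-binding LIM protein on 10p, had 1727, 1718 and 1654 in MII, 929, 972 and 884 in MIII and 275, 275 and 232 in MIV, with log2 differences of -2.63 ± 0.09 and -1.77 ± 0.09 (limma adjusted p = 3.38e-11 and 1.02e-09). KCNMA1, a calcium-activated potassium channel, had 209, 208 and 199 in MII, 698, 793 and 767 in MIII and 40.1, 30.9 and 83.6 in MIV, with log2 differences of -1.75 and -3.54 and an MIV mean of 51.5 that lay under the median of all signals. Averaged over all its probe sets, the fall against MII was -0.53 and not called. RBP4, a retinol carrier, had 130, 171 and 183 in MII, 132, 83.2 and 108 in MIII and 6.3, 23.8 and 13.3 in MIV. PPP1R3C, a glycogen-targeting phosphatase subunit, had MIV signals of 4.4, 27.1 and 13.9, beside at least 62.3 on the MII arrays and at least 149 on the MIII arrays. The 2 genes were called lower in MIV, where none of their arrays was above the median of all signals, so the size of the fall depends on the offset and is not given. ADAM8, a membrane metalloprotease with 1 MIV array above that median, fell, with differences of -1.78 and -1.45. Just outside the list on 10p, by the smaller of both differences, stood IDI1, IDI2-AS1 (1.31 and 1.53, tested through its MIV arrays alone) and ECHDC3 (1.08 and 2.12), all above the listed genes. Just inside stood CAMK1D, DIP2C and EPC1, so the list holds neither all of the highest 10p genes nor high ones alone.

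Genes on other chromosomes that were grouped with listed genes by complex or family had medians near 0. The groups also hold family members of listed genes, such as PCGF1 for BMI1 and CUL1 for CUL2. Not every partner thus shares a complex with its listed gene. Of 98 partner genes of 15 groups, 85 were on the array and 80 on other chromosomes were tested. Their median differences were 0.02 against MII and -0.07 against MIII. In limma, 24 of the 80 were higher and 16 lower than in MII, and 18 were higher and 25 lower than in MIII. These are 30% and 20%, and 22.5% and 31.2%, of the partners, next to 20% and 22.2%, and 25.3% and 26.6%, of all genes tested. Around RPP38, 5 other RNase P genes had medians of -0.31 and -0.43, and RPP40 fell by 0.86 ± 0.08 and 0.74 ± 0.08 (limma adjusted p = 9.74e-07 and 2.72e-06). Around NOLC1, NPM3, GTPBP4 and PDCD11, 7 other nucleolar genes had medians of -0.16 and -0.18, with the rRNA methyltransferase gene NOP2 falling by 0.45 ± 0.07 and 0.85 ± 0.07 (limma adjusted p = 0.000113 and 1.45e-07). By contrast, the 4 ESCRT partners of STAM had medians of 0.33 and 0.42, beside 0.53 and 0.67 for STAM. The largest rise among the partners was that of CYFIP2, a WAVE complex subunit that works with ABI1, with 526, 478 and 457 in MII, 495, 532 and 497 in MIII and 1710.1, 2038 and 1886 in MIV, or 1.91 ± 0.09 and 1.85 ± 0.09 (limma adjusted p = 1.17e-09 and 8.62e-10).

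Other partners moved singly. Of the genes grouped under PRC1, CBX2 fell by 1.32 ± 0.13 and 0.85 ± 0.13 and CBX6 by 0.67 ± 0.09 and 1.56 ± 0.09. PCGF1, a family member of BMI1, rose by 0.52 ± 0.08 and 0.54 ± 0.08. MAP3K14, the kinase that acts on CHUK in the alternative NF-kB pathway, fell by 1.07 ± 0.26 and 0.78 ± 0.26. Its call against MIII was lost when MIV replicate 3 (-0.48), MIII replicate 1 (-0.74) or MIII replicate 3 (-0.72) was left out, and that of CBX2 against MIII was lost over the mean of its probe sets (-0.16). XRCC4, an end joining factor, was higher by 0.73 and 0.63 on its brightest probe set but had values of -0.24 and -0.50 on a probe set without the array's suffix for shared sequence, so no direction is given for it.

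**Figure D5:**
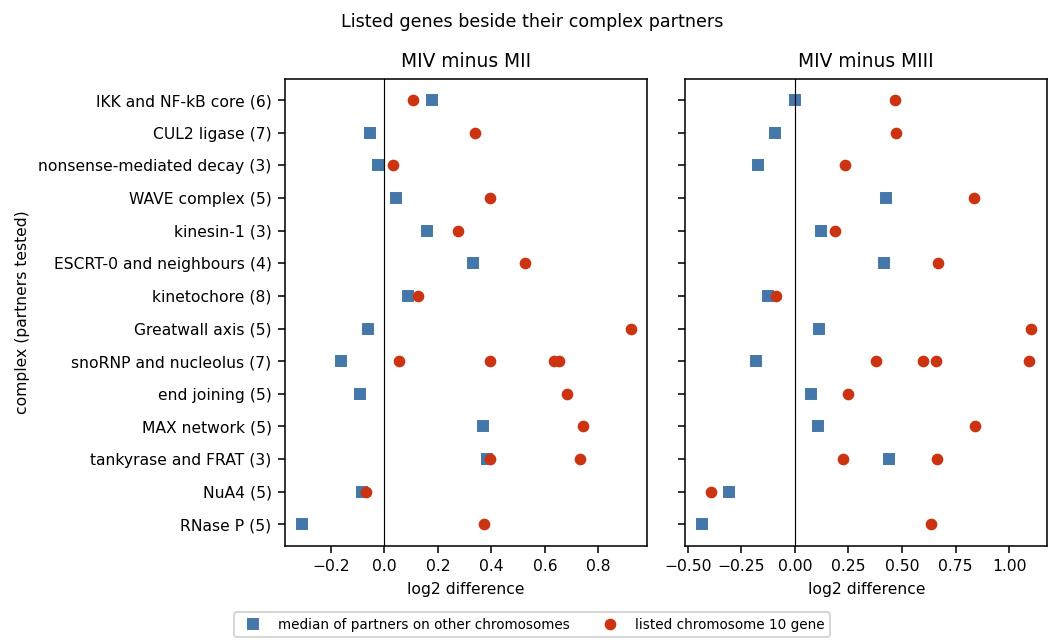
Log2 differences of listed genes (red circles) and the median of their tested partner genes on other chromosomes (blue squares), for MIV minus MII and MIV minus MIII. The 14 complexes or groups carry the number of partners in brackets. Partner medians lie on both sides of 0, from -0.31 for RNase P to 0.38 for the tankyrase and FRAT group against MII, while all but 1 of the listed genes in that panel lie above 0. The listed genes were chosen as higher in MIV and the partners were not, so nothing is read from that contrast. Circles are single genes and squares are medians.

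The array holds several probe sets for 42 of the listed genes. The others read the same samples and genes already chosen as higher in MIV. Shares over the other probe sets of all genes are not given, so nothing is read from the counts of signs below. Of 121 probe sets other than the brightest, 85, from 40 genes, were above the median of all signals on at least 3 arrays. Their median differences were 0.30 against MII and 0.25 against MIII, and 51 of the 85 were above 0 in both. They had the same sign as the brightest probe set in 67 and 66 of 85 cases. The other probe set of OPTN differed by 1.36 and 0.93 and that of ABI1 by 0.70 and 1.19, with the signs of the values above. In 8 of the 85, from 6 genes, both differences were below 0 where both were above 0 on the brightest probe set: CUL2 and SEPHS1 with the values given above, GTPBP4 (-0.21 and -0.11), SUV39H2 (-0.04 and -0.23), PDCD11 (-0.34 and -0.27) and CREM. GTPBP4 had a further probe set at 0.45 and 0.59. RBM17 was near 0 on its others, at 0.03 and 0.11 and at -0.01 and 0.05, and MRPL43 had 1 at 0.15 and -0.30 and 1 at 0.56 and 0.68. The 4 others of CREM lay between -0.27 and 0.33 against MII and between -0.58 and -0.05 against MIII, so the higher MIV level of CREM in both comparisons stood on 1 probe set alone. The 4 others of FRMD4A were all higher in MIII than in MII, by at least 0.52, and the 3 others of NMT2 were all lower there, by -0.67 to -0.32.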

How the data were processed

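The arrays were Affymetrix arrays hybridised with biotin-labelled cRNA. The deposited values are intensities on a linear scale, which the authors made with MAS5 per the submitters' processing notes; for its version, the sources used here give nothing. A trimmed mean of the middle 96% of values was 500.068 to 500.072 on all arrays, and signals were not rescaled. Of 54675 probe sets, 62 were controls, 41091 named 1 gene and 1801 several. Map order and promoters came from RefSeq tables of GRCh38.p14, which matched 41037 probe sets.

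The brightest probe set stood for its gene. Tests used log2(signal + 18.3), where 18.3 is the pooled 25th percentile, for genes with 3 or more of 9 arrays above the pooled median of 69.3. The model had a mean per line and an intensity trend (limma 3.58.1, R 4.3.3, 6 residual degrees of freedom), and Benjamini-Hochberg adjustment ran over the 12594 genes. Calls needed an adjusted p under 0.05, without a fold minimum. The script was tested on simulated data.

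The listed genes, their roles and their partners were chosen with earlier results of these data known. Array values are given for the 10 largest and 5 smallest genes by the smaller of both MIV differences, the 6 with the smallest adjusted p between MIII and MII, the 3 brightest of each role and the head-to-head pair. Other chromosome 10 genes named are the 5 largest rises and 5 largest falls called in both comparisons; partners named are the 8 largest such changes. Replicate numbers do not pair arrays: same-numbered deviations correlated at r = -0.039 to 0.039.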

Additional observations from a re-analysis of the deposited data

How the results depend on the processing

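The MIV medians of the listed genes, of 10p and of 10q stayed above 0 under every alternative run. Over the mean of all probe sets, the medians of the listed genes were 0.29 against MII and 0.28 against MIII, those of 10p 0.23 and 0.23 and those of 10q 0.20 and 0.26. On probe sets without a suffix for shared sequence they were 0.36 and 0.38, 0.31 and 0.29, and 0.20 and 0.30. In the same settings the median of the listed genes between MIII and MII turned from -0.002 to 0.055 and 0.040; that median lies near 0 and no direction is read from it. Without a filter, the medians were 0.25 and 0.25 for 10p and 0.16 and 0.18 for 10q. With a filter at the upper quartile, they were 0.40 for 10p against MIII and 0.29 and 0.41 for 10q, and 27 and 37 other chromosome 10 genes were lower than in MII and MIII. An offset of 1 gave 0.38 for 10p against MIII and 0.25 for 10q against MII, and an offset at the pooled median gave 0.30 and 0.27 for 10p and 0.21 and 0.31 for 10q. Median scaling gave 0.44 for the listed genes, 0.38 for 10p and 0.28 for 10q against MII, quantile normalization gave 0.25 for 10q against MII and cyclic loess 0.32 for 10q against MIII.

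Counts depended on the fold asked for. At 1.5-fold and more, 4 listed genes were higher and 1 lower in MIII than in MII, 79 and 132 other chromosome 10 genes were higher in MIV than in MII and MIII, and of the partner genes 6 were higher and 5 lower than in MII and 5 higher and 6 lower than in MIII. At 2-fold and more, 0 listed genes were higher and 0 lower in MIII than in MII in limma, 32 and 56 other chromosome 10 genes were higher and 17 and 30 lower in MIV, and of the partners 1 was higher and 2 lower than in MII and 1 higher and 1 lower than in MIII. On suffix-free probe sets, where 9673 genes were tested in all, 6 listed genes were lower in MIII than in MII, 129 other chromosome 10 genes were higher in MIV than in MII, and 11 partners were higher in MIV than in MII and 11 than in MIII. On those probe sets the MIII minus MII values of WDR11 (0.076), IDI1 (0.197) and YME1L1 (0.057, and 0.072 over all probe sets) turned above 0, and XRCC4 turned to -0.244 and -0.504 in MIV. The cause of these changes was not tested. Apart from the fold minimums between MIII and MII above, shares of all genes called under the settings of this section are not given. The number of listed genes tested on suffix-free probe sets is not given either. A changed count thus cannot be told apart from a change in calls over all genes, and nothing is read from it.

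Leaving out each array in turn gave medians of the listed genes of 0.36 to 0.40 against MII, 0.41 to 0.44 against MIII and -0.030 to 0.012 between MIII and MII. For 10p they were 0.31 to 0.36 and 0.33 to 0.38, and for 10q 0.23 to 0.25 and 0.33 to 0.35. With the replicate block, 15 listed genes were higher and 10 lower in MIII than in MII, and 196 and 226 other chromosome 10 genes were higher in MIV. The block moved no count given in the text by more than 1.5 times. The number of arrays, 3 per line, limits the precision.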
